A study of Glycine max with 63 samples.

Results

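Seed filling was followed in the field-grown soybean line W-1, the line with the Arabidopsis transgene AtWRI1. Its 9 RNA-seq libraries were chosen by their labels: 3 from seeds at stage R5, 3 at R5/6 and 3 at R6. They belong to a series of 63 libraries. The others of the field set are 9 libraries of the parent cultivar Thorne (WT) and 9 of the line WD-1 at the same stages. The WD-1 libraries held AtWRI1 counts too. Another 36 libraries came from greenhouse embryos and were not analysed here. Each table lists estimated counts for soybean genes and for AtWRI1 and AtDGAT, the Arabidopsis transgenes of the study. The AtDGAT counts of WD-1 are not given here, so that line is not shown to carry AtWRI1 alone. The labels describe neither the construct, the promoter nor the number of events behind W-1. Irrigated plots were laid out at random in 3 replications. From each field sample 12 seeds were genotyped and 4 were bulked for 1 RNA preparation, so a replicate is a pool of whole seeds and not a single embryo.

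Soybean seed development runs from R5, when seed growth begins, to R6, when the green seed fills the pod cavity. Between these stages the cells of the embryo largely stop dividing, expand, and build up storage protein and oil, so that a few kinds of storage transcript come to fill the seed's RNA. WRI1 is a transcription factor of plant seeds known for switching on genes of glycolysis and fatty acid synthesis, and DGAT1 encodes the acyltransferase that completes triacylglycerol. The RefSeq table at hand names 59,048 soybean genes, and 0 of the 55,899 identifiers in the count tables could be found there. Soybean genes are therefore given by identifier, without a function, and neither the gene lists for oil, storage protein, seed coat and endosperm nor the seed tissue itself could be checked by marker genes. In whole seeds, fewer cells of a type and less RNA per cell cannot be told apart.

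The 9 W-1 libraries held 2.05, 27.4 and 35.9 M counts at R5, 31.4, 2.60 and 3.34 M at R5/6, and 25.6, 27.2 and 2.77 M at R6, for replicates 1, 2 and 3. Where a gene has 0 counts, its true level could still correspond to 3 counts, or 0.0835 to 1.46 counts per 1,000,000 (CPM) in single libraries. In the pooled libraries of R5, R5/6 and R6 that limit is 0.0459, 0.0803 and 0.0540 CPM. With the TMM scaling described below it is 0.0321, 0.0852 and 0.0840, and folds against a stage at 0 use these scaled limits. These limits cover counting error only. Replicates of a stage correlated at r = 0.924 to 0.975 across the 38,914 genes tested. Levels below are CPM after TMM scaling, which sets libraries on a scale where most genes keep their level, with SD over 3 libraries. Tests are edgeR's quasi-likelihood F-test in 1 model of the 27 field libraries, 2-sided, with Benjamini-Hochberg adjustment over all genes and a threshold of 0.05. The protocol in the labels speaks of plots in 3 replications, but the samples carry only a replicate number, and p-values measure the spread between these pools.

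Some libraries stood apart in a way that does not follow the labels. GLYMA_13G013600 was listed at 0 in 9 of the 27 field libraries and at 1078 to 21,518 CPM of all counts in the other 18. All 9 libraries at 0 held under 10 M counts, and W-1 R5/6 replicates 2 and 3 and W-1 R6 replicate 3 were among them. W-1 R5 replicate 1 was as shallow, yet held 6506 TMM-normalized CPM of this gene. Counting this gene, 3 genes were over 3 times higher in every library of the 18 than in any of the 9, and 1 gene was over 3 times higher the other way. The part of this split in the results was not tested. Every W-1 R5 library belongs to the 18, so no comparison with R5 can be made within the 9, and counts within the 18 are given beside the main ones. The filter was run anew within the 18, where 40,914 genes were tested against 38,914 in the main fit. WT R6 replicate 2, the shallowest field library at 1.17 M counts, also lay far from the others on the second principal component.

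AtWRI1 was read in every W-1 library, and AtDGAT had 0 counts in all 9, which allows up to 0.0189 CPM over their 158 M counts. AtWRI1 stood at 4.07, 1.27 and 3.61 TMM-normalized CPM at R5, at 111, 189 and 129 at R5/6, and at 180, 253 and 236 at R6. No R5 library came near any later one, and the R5/6 and R6 libraries overlapped. The transgene rose from R5 to R5/6 by 5.71 on the log2 scale (SE 0.80, adjusted p = 7.56e-05), which is 47.8 times by the means. From R5/6 to R6 the difference was 0.65 (SE 0.63, adjusted p = 0.591). On CPM without TMM scaling the last 2 stages stood at 126 ± 22.4 and 138 ± 8.55 (SD, n = 3). Over the whole interval AtWRI1 rose by 6.36 on the log2 scale (SE 0.82, adjusted p = 3.07e-06), from 2.99 ± 1.50 to 223 ± 38.3 TMM-normalized CPM (SD, n = 3). In WT the AtWRI1 row held 1 count in all 9 libraries.

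The counts of W-1 seeds became concentrated in a few genes as filling went on. The 10 most abundant genes of a library held 17.3, 22.6 and 17.2% of all counts at R5, 28.2, 43.4 and 38.8% at R5/6, and 39.9, 42.0 and 54.5% at R6. Every R6 library lay above every R5 library, while R5/6 replicate 2 lay above 2 of the 3 R6 libraries. The number of genes that together held 50% of the counts was 1528, 1293 and 1364 at R5, 226, 19 and 67 at R5/6, and 23, 17 and 7 at R6. The 100 most abundant genes held 28.0% ± 2.28 at R5, 52.2% ± 7.17 at R5/6 and 64.7% ± 4.99 at R6 (SD, n = 3). The number of genes at 1 CPM or more fell in the same order, from 31,099 ± 361 through 28,074 ± 364 to 25,274 ± 1091 (SD, n = 3). For each of these measures the exact 2-sided permutation test of R6 against R5 gave p = 0.1, the smallest that 3 against 3 libraries allow. Shallow libraries are unevenly spread over the stages, with 1 at R5, 2 at R5/6 and 1 at R6, and their part in these shares was not tested.

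**Figure D1:**
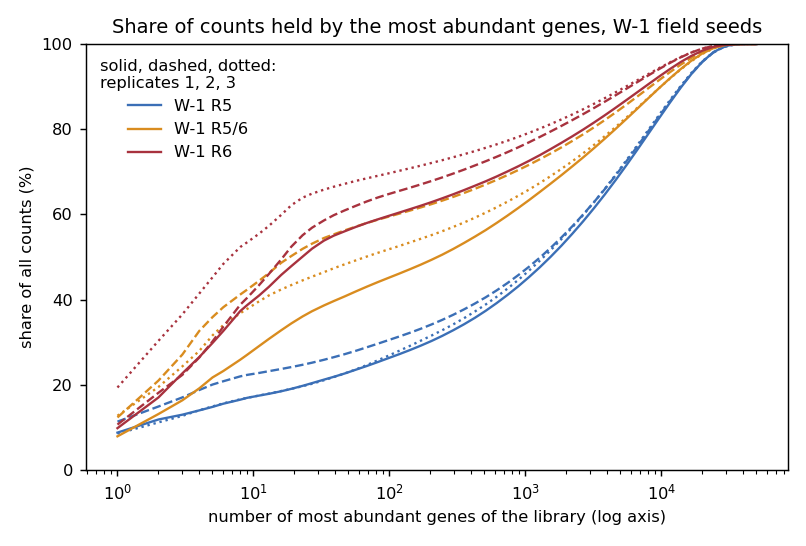
Share of all counts (%) held by the most abundant genes of each W-1 field library, against the number of genes counted (log axis); colours are stages and line styles replicates. The 3 R5 libraries reach 26.4 to 30.6% at 100 genes, the 3 R6 libraries 59.7 to 69.7%, and the R5/6 libraries lie between or reach into the R6 range.

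The genes that newly came to lead the counts held small shares of them at R5, on average at most 0.0455%. By mean level GLYMA_20G148400 still ranked 111 and GLYMA_10G246300 ranked 133 among the tested genes at R5. GLYMA_03G163500 held 35.4, 7.32 and 130 TMM-normalized CPM at R5, 54,852, 155,513 and 71,131 at R5/6, and 137,107, 184,782 and 334,564 at R6. R5 stood far below both later stages, and the R5/6 and R6 ranges overlapped. At R6 this single gene took 9.84, 10.7 and 19.4% of all counts. It rose by 11.89 on the log2 scale from R5 to R6 (SE 2.11, adjusted p = 7.34e-05).

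GLYMA_20G148400 went from 202, 138 and 607 TMM-normalized CPM at R5 to 78,788, 128,931 and 188,848 at R6, with 29,528, 108,748 and 38,290 at R5/6. Its R6 libraries all lay above R5 and partly among R5/6. GLYMA_10G246300 stood at 309, 69.2 and 451 at R5, 33,843, 76,948 and 51,166 at R5/6, and 53,522, 72,798 and 107,356 at R6. From R5 to R6 GLYMA_20G148400 rose by 8.71 on the log2 scale (SE 1.39, adjusted p = 2.01e-05). For GLYMA_10G246300 the rise was 8.14 (SE 1.38, adjusted p = 4.21e-05). GLYMA_08G116300, among the 5 genes with most counts at R5/6, rose by 10.45 over the same interval (SE 1.77, adjusted p = 4.11e-05), from 37.8 ± 32.6 to 52,780 ± 16,131 TMM-normalized CPM (SD, n = 3). For each of these 4 genes the difference between R5/6 and R6 missed the threshold, with adjusted p from 0.532 to 0.827.

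The genes with most counts at R5 did not follow this course. GLYMA_13G021200 held the most counts at R5 and at R5/6 and stayed among the top 5 at R6, with 56,652, 77,983 and 60,987 TMM-normalized CPM at R5 and 100,217, 56,117 and 54,067 at R6. The stages overlapped, and the fitted difference of 0.10 on the log2 scale (SE 0.71, adjusted p = 0.927) turned to -0.03 with DESeq2 size factors and to -1.08 without scaling factors. GLYMA_13G023300 likewise overlapped between R5 and R6, at 20,988 ± 2909 and 22,518 ± 7222 (SD, n = 3). Its difference was 0.10 (SE 0.47, adjusted p = 0.890), with -0.04 under DESeq2 size factors and -1.11 without scaling factors, where it passed the threshold (adjusted p = 0.0444).

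The other 3 of the R5 leaders varied widely among the libraries of a stage, and 1 of them, GLYMA_13G013600, defines the library split described above. GLYMA_13G024100 stood at 19,718, 2751 and 193 TMM-normalized CPM in the 3 R6 libraries, and at 7273, 14,679 and 10,921 at R5. GLYMA_13G013600 stood at 16,157, 2499 and 0 at R6, and GLYMA_U007200 at 9566, 2525 and 0. None of the 3 passed the threshold between R5 and R6, with adjusted p of 0.788, 0.885 and 0.849. Counts were not divided by gene length, so these ranks order shares of counts and not transcript numbers. Near-identical gene copies may also share reads in the authors' counting.

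Across all genes, R6 differed from R5 widely. Of the 38,914 genes tested, 15,999 (41.1%) passed the threshold, 7286 of them (18.7%) higher and 8713 (22.4%) lower at R6, and 19,026 had an unadjusted p under 0.05. Among the called genes falls were larger than rises: the median log2 fold change was 1.13 among genes higher and -2.12 among genes lower at R6. Genes called lower had a median of 7.14 TMM-normalized CPM at R5 and 1.64 at R6, those called higher 8.13 and 17.7. The part of level in the size of called changes was not tested. Over 2-fold, 4263 genes (11%) were higher and 7373 (18.9%) lower. Between 16- and 256-fold there were 431 rises and 1553 falls, and over 256-fold 75 rises and 147 falls. Of the rises, 143 genes had 0 counts in all 3 R5 libraries, and 770 of the falls had 0 counts in all 3 R6 libraries, so their fitted folds depend on the prior count. Of these called genes, 6586 of the 7286 higher and 7921 of the 8713 lower had no overlap between the 3 libraries of each stage. The share without overlap among all genes is not given here, so these counts describe the calls and add no support to them.

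The direction of change differed with the level of the gene. Among genes with a mean of 1000 TMM-normalized CPM or more over the 3 stages, 38 of 55 were higher and 2 lower at R6. Among genes under 1 CPM, 474 of 9302 (5.10%) were higher and 1818 (19.5%) lower. The level used here contains the R6 libraries, and the contrast is described and not tested. Of the 100 genes with most counts at R5 and the 100 at R6, 45 were shared. By the chromosome number in the identifiers, genes over 2-fold higher made up 9.02 to 12.1% and genes over 2-fold lower 16.8 to 21.3% of the tested genes on each of the 20 chromosomes, near the shares over all genes.

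**Figure D2:**
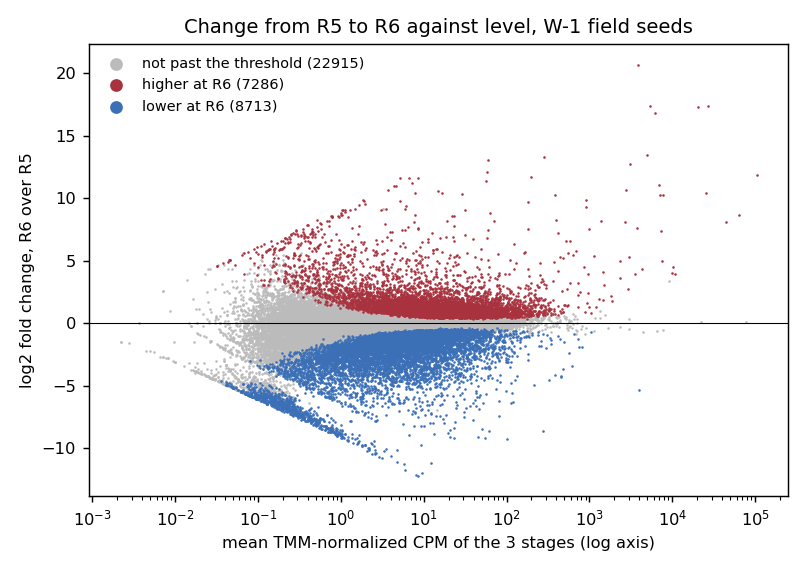
Log2 fold change from R5 to R6 in W-1 against the mean TMM-normalized CPM of the 3 stages (log axis), 1 point per gene; red marks the 7286 genes higher and blue the 8713 genes lower at R6. Rises reach to the right end of the axis, while most falls lie under 1000 CPM.

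These counts rest on the TMM scale. TMM factors were 1.40 to 1.55 at R5, 0.795 to 0.953 at R5/6 and 0.578 to 0.718 at R6, the groups not overlapping. With DESeq2 size factors in edgeR, 5970 genes were higher and 9904 lower at R6, and the median gene moved by -0.21 on the log2 scale against -0.07 with TMM. DESeq2's own test gave 5665 higher and 9024 lower. With libraries scaled to their totals alone, 1191 genes were higher and 24,436 lower, and the median gene moved by -1.26. Within the 18 libraries that held GLYMA_13G013600, 7723 genes were higher and 8960 lower.

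The largest rise from R5 to R6 by the rule for named genes was that of GLYMA_12G213600. It had 0 counts in all 3 R5 libraries, 303, 5204 and 760 TMM-normalized CPM at R5/6, and 7628, 15,642 and 5577 at R6. R5/6 replicate 2 came close to the lowest R6 library, and the other 2 lay well under it. Against 3 counts over the pooled R5 libraries, its R6 mean was at least 299,879-fold higher (adjusted p = 4.35e-07). GLYMA_10G037100, among the 5 genes with most counts at R6, had 0, 0 and 0.79 TMM-normalized CPM at R5 and 45,921, 65,180 and 84,694 at R6. All of its 40 R5 counts came from replicate 3, and its log2 fold change was 17.39 (SE 2.64, adjusted p = 1.11e-05).

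The largest falls ended in genes without a count at R6. GLYMA_09G040800 stood at 15.7, 32.2 and 28.2 TMM-normalized CPM at R5 and had 0 counts in all 6 later libraries. Its R5 mean was at least 302-fold above the limit of the pooled R6 libraries (adjusted p = 1.67e-05). GLYMA_11G236800 fell later: it held 22.9, 21.5 and 23.5 at R5, 3.50, 3.39 and 10.8 at R5/6, and 0 counts at R6. Its R5 mean was at least 269-fold above the limit at R6 (adjusted p = 3.94e-05), while the step from R5 to R5/6 missed the threshold (adjusted p = 0.0726). In WT and WD-1 both genes also had 0 counts in all R6 libraries.

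**Figure D3:**
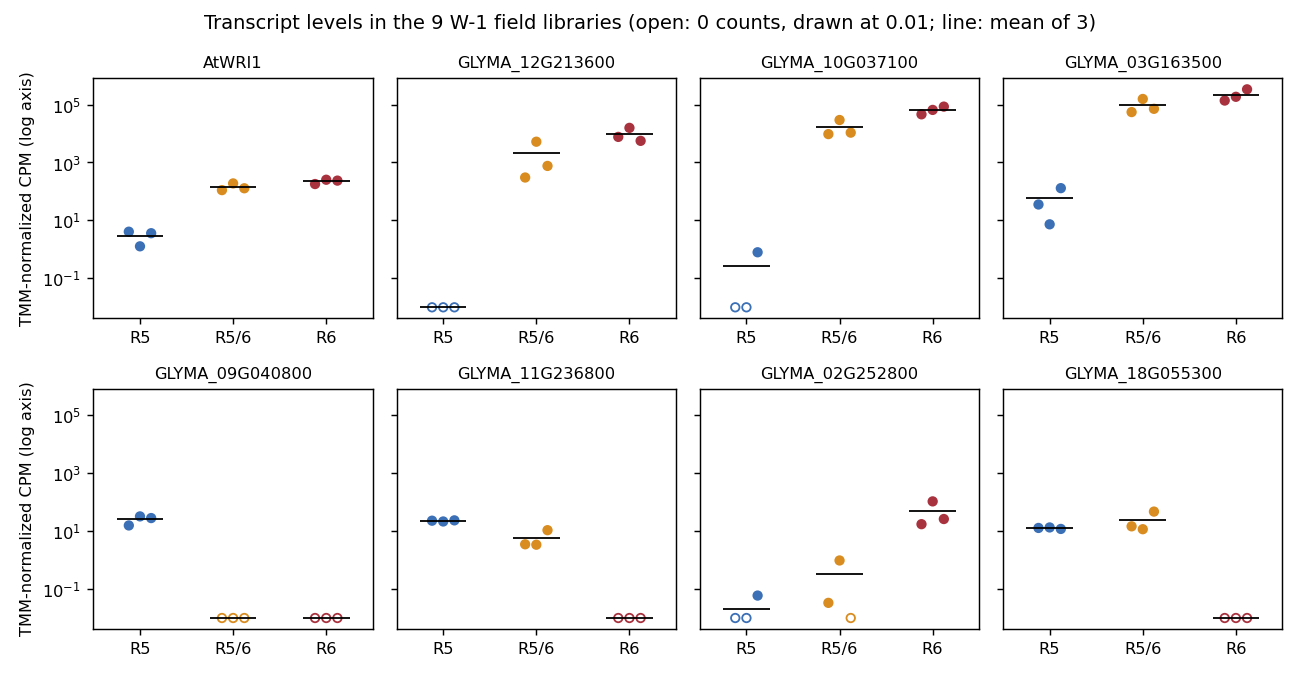
TMM-normalized CPM (log axis) of AtWRI1 and 7 soybean genes in the 9 W-1 field libraries by stage; points are libraries, open points 0 counts drawn at 0.01, and lines the mean of 3. AtWRI1 and the 3 other genes of the upper row are already far above R5 at R5/6, GLYMA_09G040800 is at 0 from R5/6 on, and GLYMA_02G252800 and GLYMA_18G055300 change between R5/6 and R6.

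The first step, R5 to R5/6, held 7889 calls (20.3%), with 3781 genes (9.72%) higher and 4108 (10.6%) lower at R5/6; over 2-fold these were 2086 (5.36%) and 3404 (8.75%). Leaving out 1 library gave 5061 to 6713 calls, the fewest without R5/6 replicate 1, the only deep library of that stage. Within the 18 libraries that held GLYMA_13G013600 there were 7239, with 3709 higher and 3530 lower. Without R5/6 replicate 1 the lower calls were 2519, and without R5 replicate 2 the higher calls were 2394. GLYMA_12G213600 and GLYMA_10G037100 also made the largest rises of this step, the first to at least 65,141-fold its R5 limit. GLYMA_14G100000 made the largest fall, from 1.57, 4.25 and 77.6 TMM-normalized CPM at R5 to 0 counts at R5/6 (adjusted p = 5.32e-04). One R5 library held nearly all of it, and 1 count returned at R6.

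The second step, R5/6 to R6, held 3465 calls (8.9%), with 1178 genes (3.03%) higher and 2287 (5.88%) lower at R6; over 2-fold these were 622 (1.6%) and 2045 (5.26%). Within the 18 libraries that held GLYMA_13G013600 there were 3843 calls, 1113 higher and 2730 lower, with 1 library at R5/6. The count depended on single libraries: there were 785 calls (210 higher, 575 lower) without R6 replicate 2, 1247 (345 higher, 902 lower) without R5/6 replicate 1, and 594 higher calls without R5/6 replicate 3. The 2 largest rises of this step, by the rule, started from a few counts at R5/6. GLYMA_02G252800 had 3 counts in all of R5 and 3 in all of R5/6, and then stood at 17.3, 106 and 26.1 TMM-normalized CPM at R6 (log2 fold change 9.05, SE 1.21, adjusted p = 1.55e-04). GLYMA_14G063700 rose to 11.5, 66.3 and 16.2 at R6 from 5 counts in all of R5/6 (adjusted p = 0.00654), and lost its call without R5/6 replicate 1 (adjusted p = 0.106) or R6 replicate 2 (adjusted p = 0.0648).

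A pair of genes fell from the middle stage to 0. GLYMA_15G238600 stood at 0.94, 0.52 and 0.79 TMM-normalized CPM at R5, 14.5, 17.0 and 98.1 at R5/6, and 0 counts at R6. It thus rose by 5.94 on the log2 scale in the first step (SE 1.20, adjusted p = 0.00150) and in the second fell to the limit, at least 514-fold (adjusted p = 0.00177). GLYMA_18G055300 was level at 12.9, 13.4 and 11.9 at R5 and 14.6, 11.6 and 47.2 at R5/6, and had 0 counts in the 3 R6 libraries. Its R5/6 mean was at least 291-fold above the R6 limit (adjusted p = 1.80e-05). Both had 0 counts in all WT R6 libraries and at most 2 counts in any WD-1 R6 library.

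By the measure below, the seeds labelled R5/6 lay between R5 and R6, somewhat nearer to R6. For each gene over 2-fold changed from R5 to R6, the place of R5/6 was measured on the log2 scale of TMM-normalized CPM with 0.5 added, from 0% at the R5 mean to 100% at the R6 mean. The median place was 57.8, 72.5 and 60.4% in the 3 R5/6 libraries for genes that rose, and 56.7, 71.4 and 56.8% for genes that fell. Replicate 2 was the furthest in both. Replicates 2 and 3 are the shallow libraries without GLYMA_13G013600, and the part of depth or of that split in these places was not tested. Of the 4263 genes that rose, 2870 (67.3%) were past the midpoint on the mean of the 3 libraries, 488 lay beyond R6 and 137 before R5. Of the 7373 that fell, 4733 (64.2%) were past the midpoint.

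The same measure was taken on each line's own genes changed over 2-fold, 3735 higher (9.6%) and 5836 lower (15%) at R6 in WT, and 3871 (9.95%) and 6080 (15.6%) in WD-1. It gave 60.2, 56.8 and 77.1% for rises and 48.9, 43.5 and 65.8% for falls in WT. In WD-1 the places were 30.8, 51.4 and 58.2% for rises and 20.02, 38.3 and 51.8% for falls. Replicate 3 was the furthest in both lines, a shallow library in WD-1 (3.30 M counts) and a deep one in WT (32.1 M). The W-1 libraries overlapped those of WT for both kinds of gene, and lay above 2 of the 3 WD-1 libraries for rises and above all 3 for falls. Since the gene sets differ between lines, these places are set side by side and not tested.

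**Figure D4:**
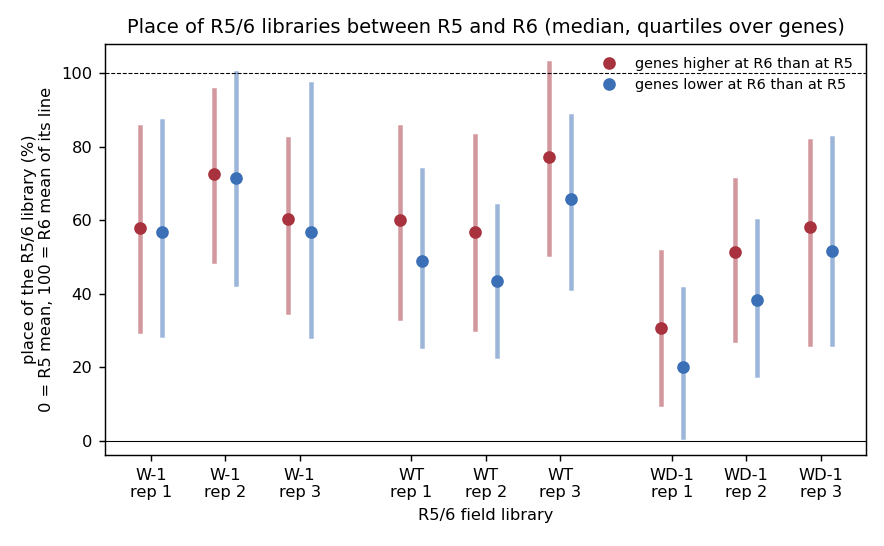
Place of each R5/6 field library between its line's R5 mean (0%) and R6 mean (100%), as the median (point) and quartiles (bar) over genes changed over 2-fold; red for genes higher and blue for genes lower at R6. The W-1 libraries lie at 56.7 to 72.5%, and the WD-1 libraries reach down to 20.02%.

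Most of the W-1 course was shared with the parent. WT R6 against R5, which shares no library with W-1, had 5835 genes higher (15%) and 6992 lower (18%). Of the 7286 genes higher in W-1, 3986 were called higher in WT, 54.7% of the W-1 list and 68.3% of the WT list, and 104 were called lower. Of the 8713 genes lower in W-1, 5186 were called lower in WT, 59.5 and 74.2% of the 2 lists, and 7 were called higher. In WD-1 the shared calls were 4903 of the higher genes (67.3% of the W-1 and 75.4% of the WD-1 list) and 5674 of the lower (65.1 and 77.1%). Across genes, the log2 fold changes of W-1 correlated at r = 0.736 with WT and 0.780 with WD-1, where genes are not independent replicates and the same stages are compared.

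The W-1 change itself differed from the WT change in 659 genes (1.69%), of which 532 (1.37%) changed upward relative to WT and 127 (0.326%) downward. Of the 532, 255 rose in W-1 with no call in WT, 139 fell in WT with no call in W-1, and 102 rose in W-1 and fell in WT. Another 20 rose in both lines and 16 fell in both, the rise being larger or the fall smaller in W-1. The median log2 change of the 532 was 1.23 in W-1 and -0.74 in WT. Of the 127, 64 fell in W-1 with no call in WT, 39 rose in WT with no call in W-1, and 6 fell in W-1 and rose in WT.

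The WD-1 libraries were no side of this contrast, though they entered the filter, scaling and dispersion of the model behind the calls. Of the 532 genes, 313 (58.8%) rose from R5 to R6 in WD-1 and 51 fell, against 16.7% risen and 18.9% fallen among all genes tested, and their median WD-1 change was 0.92. Of the 102 genes with a rise in W-1 and a fall in WT, 61 (59.8%) rose in WD-1 and 0 fell. Of the 255 genes with a rise in W-1 and no call in WT, 222 (87.1%) rose in WD-1 and 0 fell. Among all 7286 genes higher at R6 in W-1, 67.3% rose in WD-1 and 4 fell. The share of the 102 was thus no higher than that of W-1 rises at large, while that of the 255 was higher. Since 3986 of the 7286 were also called higher in WT, these shares are set side by side and not tested. Of the 127 genes, 57 (44.9%) fell in WD-1 and 13 rose, with a median of -0.53.

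GLYMA_12G048800 showed the largest upward difference by the rule for named genes. It held 0, 0.55 and 0.14 TMM-normalized CPM in W-1 at R5 and 21.2, 46.3 and 16.8 at R6, against 0.39, 0.30 and 0.02 and then 0.53, 0 and 0.05 in WT. The W-1 R6 libraries thus stood apart from all 6 WT libraries. The changes differed by 7.77 on the log2 scale (SE 1.74, adjusted p = 0.0160), and the call was lost without WT R5 replicate 1 (adjusted p = 0.0841) or WT R6 replicate 3 (adjusted p = 0.166). In WD-1 it stood at 32.4, 38.8 and 13.4 at R6.

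GLYMA_08G003100 rose in W-1 from 0.63, 0.55 and 0.58 TMM-normalized CPM to 49.8, 67.4 and 51.0, and in WT held 0.80, 0.47 and 0.80 at R5 and 1.07, 1.34 and 0.22 at R6. Its W-1 libraries were tight at both stages and did not overlap with WT at R6. The difference of the changes was 7.56 (SE 1.20, adjusted p = 6.15e-04) and kept its call under every alternative run. WD-1 R6 libraries held 35.8, 90.7 and 46.7.

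Of the downward differences, GLYMA_08G200100 rested on 2 WT libraries. It held 138, 13.4 and 0 TMM-normalized CPM in the 3 WT R6 libraries and 0.76, 0 and 0.62 in W-1, so that the 2 shallow WT libraries carried it and the deep one had none. The fitted difference was -12.30 (SE 2.32, adjusted p = 0.00361), it lost its call without WT R6 replicate 1 (adjusted p = 0.0996), and it turned to 1.49 within libraries over 10 M counts and to 1.06 within the 18 libraries that held GLYMA_13G013600. GLYMA_03G052200 rose in both lines, to 16.8, 18.2 and 11.2 in W-1 and 23.0, 24.2 and 42.8 in WT at R6, from 1.57, 1.15 and 10.0 and from 0.78, 0.71 and 0.92 at R5. The W-1 rise was the smaller (difference -3.56 on the log2 scale, SE 0.78, adjusted p = 0.0133). The call was lost without W-1 R5 replicate 3, the library at 10.0 (adjusted p = 0.342), and without WT R6 replicate 3 (adjusted p = 0.0615). It was also lost within libraries over 10 M counts (adjusted p = 0.0614) and within the 18 libraries that held GLYMA_13G013600 (adjusted p = 0.0582).

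**Figure D5:**
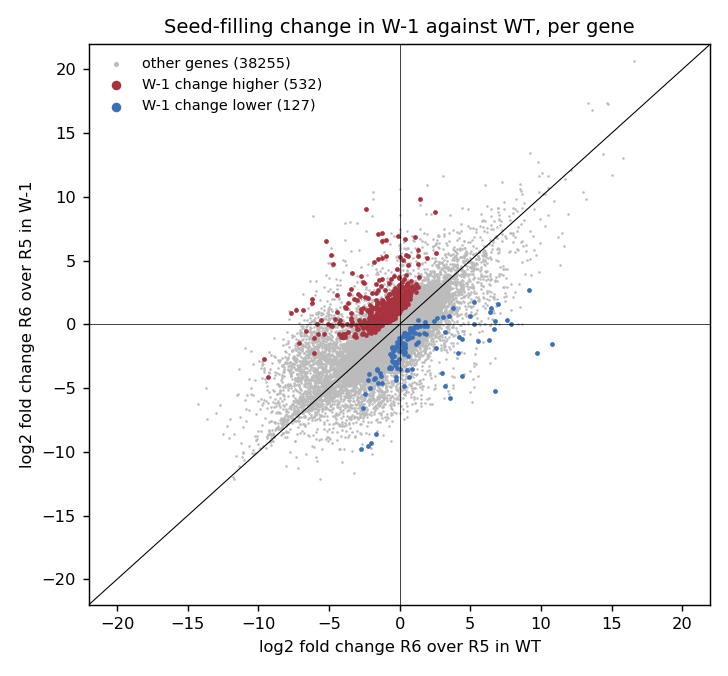
Log2 fold change from R5 to R6 in W-1 (vertical axis) against that in WT (horizontal axis), 1 point per gene, with the line of equal change; red marks the 532 genes whose W-1 change was higher and blue the 127 whose W-1 change was lower. Most red points lie between a fall or no change in WT and a rise in W-1.

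WT R6 held 2.51, 1.17 and 27.2 M counts, so this contrast rests on 1 deep WT library at that stage. Leaving out 1 library gave 355 to 616 calls, the fewest without W-1 R6 replicate 2 (318 upward, 37 downward), with 407 (332 upward, 75 downward) without W-1 R5 replicate 2. The 127 downward calls became 50 without W-1 R5 replicate 3, 56 without WT R5 replicate 1 and 204 without WT R6 replicate 3. Without WT R6 replicate 2, the library apart on the second component, there were 393 upward and 91 downward calls. Within the 18 libraries that held GLYMA_13G013600 there were 468 upward and 296 downward calls.

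Between the changes of W-1 and WD-1, edgeR called 0 genes, with 3134 (8.05%) at an unadjusted p under 0.05 and the smallest adjusted p at 0.0516. DESeq2 called 31 genes, 8 upward and 23 downward in W-1, and 39 were called by edgeR within the 18 libraries that held GLYMA_13G013600. The median SE of a gene's difference was 0.53 on the log2 scale, against 0.54 in the contrast with WT, where 659 genes were called. A lack of calls does not show that the lines changed alike. The AtWRI1 change was larger in W-1 by 3.17 (SE 0.95, adjusted p = 0.383), with WD-1 at 3.45, 64.4 and 17.6 TMM-normalized CPM at R5 and 248, 337 and 200 at R6. The W-1 and WD-1 levels overlapped at both stages.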

How the data were processed

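RNA from field seeds was sequenced, and the authors deposited 1 table of estimated counts per library without normalization, per the file headers. Tools listed in the submitters' processing notes are R 3.6.3, sleuth 0.30.0, kallisto 0.43.1 and FastQC 0.11.5. Genome build and annotation were not given in the sources used here. Estimated counts were rounded to whole numbers. The row without a gene name held at most 4 counts and was left out.

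Groups came from the labels. edgeR 4.0.16 in R 4.3.3 kept 38,914 genes by filterByExpr, scaled libraries by TMM and fitted 9 group means to 27 libraries (18 residual degrees of freedom, biological coefficient of variation 0.284). The test was tried on simulated counts in which 200 genes changed, drawn from genes of middle level, with all others unchanged. For R6 against R5 it recovered 30% of the 2-fold and 89% of the 4-fold changes. In the data 15,999 genes passed, which makes the adjustment less strict, so these shares do not give the sensitivity of that comparison. For the contrast with WT it recovered 4% and 73%, so most 2-fold differences between lines would be missed in such a setting. The SE of a log2 fold change was derived from its F statistic. A fold against a group at 0 used 3 counts over that group's pooled libraries, on the TMM scale, as its limit. DESeq2 1.42.0 served as an alternative. Other steps used Python 3.11.15, numpy 2.4.6, pandas 2.3.3, scipy 1.17.1 and matplotlib 3.10.9.

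Genes were named by a rule: the 2 largest changes in each direction per comparison, among genes past the threshold with at least 20 TMM-normalized CPM in the higher group (for stage comparisons also without overlap), the 5 genes with most counts at each stage, and the transgenes. GLYMA_13G013600 as a marker of the library split was chosen after its values were seen. The comparisons, lists and members were chosen with earlier results of these data known.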

Additional observations from a re-analysis of the deposited data

Results flagged for a closer look

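The change from R5 to R6 differed between W-1 and WT, by a test of the difference itself, in 659 genes. The 4 named genes of that comparison were picked by the rule among these calls, so their passing was fixed in advance. The differences of the log2 changes, W-1 minus WT, were 7.77 for GLYMA_12G048800, 7.56 for GLYMA_08G003100, -12.3 for GLYMA_08G200100 and -3.56 for GLYMA_03G052200. GLYMA_08G200100 rested on 259 and 10 counts in the 2 shallow WT R6 libraries, with 0 in the deep one. The calls of GLYMA_12G048800, GLYMA_08G200100 and GLYMA_03G052200 were each lost without single libraries, as given above.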

How the results depend on the processing

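Of 436 alternative values for the named genes, 413 kept their direction and their side of the threshold, 10 lost their call and 13 turned sign. The sign turned only for genes of R6 against R5 without a call, and for GLYMA_08G200100 against WT. With DESeq2 size factors, with DESeq2's own test and without scaling factors, GLYMA_13G021200 came to -0.0308, -0.0308 and -1.08, and GLYMA_13G023300 to -0.0423, -0.0422 and -1.11. GLYMA_13G024100 came to 0.0235 within the 18 libraries that held GLYMA_13G013600. Leaving out 1 library moved the fitted differences of GLYMA_13G021200 from -0.24 to 0.26, of GLYMA_13G023300 from -0.10 to 0.34, of GLYMA_13G024100 from -2.90 to 0.035 and of GLYMA_13G013600 from -2.89 to 0.004. GLYMA_08G200100 came to 1.49 within libraries over 10 M counts and to 1.06 within the 18. The causes were not tested, except that the last 2 settings leave out the WT libraries with its counts. These 2 settings and the fit without scaling factors were chosen after seeing the data.

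With a fold limit of 2, R6 against R5, R5/6 against R5 and R6 against R5/6 had 4263, 2086 and 622 genes higher. Without scaling factors they had 25,627 calls (1191 higher, 24,436 lower), 13,806 (971 higher, 12,835 lower) and 6835 (234 higher, 6601 lower), against WT 312 (248 upward, 64 downward) and against WD-1 1, downward. Against WT, the 127 downward calls were 253 with DESeq2, 217 over 10 M counts and 296 within the 18. Against WD-1, where edgeR called 0, there were 12 calls without the filter on low counts (4 upward, 8 downward), 12 with the libraries of both lines alone (3 upward, 9 downward), 31 with DESeq2 (8 upward, 23 downward), 37 over 10 M counts (13 upward, 24 downward) and 39 within the 18 (14 upward, 25 downward).

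Leaving out 1 library, with the filter run anew, left 39,815 to 40,068 genes to test, against 38,914 in the main fit. It gave 10,915 to 15,200 calls for R6 against R5. For R5/6 against R5 it gave 5061 to 6713 calls, 2394 to 3239 higher and 2519 to 3662 lower. For R6 against R5/6 it gave 785 to 3669, 210 to 1208 higher and 575 to 2461 lower. Against WT it gave 355 to 616, 318 to 485 upward and 37 to 204 downward, and against WD-1 0 to 14, 0 to 10 upward and 0 to 4 downward. The settings over 10 M counts and within the 18 leave 1 library in W-1 R5/6 and in WT R6, and such a library is assumed to vary like the other groups.

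The replicate numbers were not taken as pairs. Deviations of same-numbered W-1 libraries correlated at -0.03 to 0.00 between R5 and R6, at -0.07 to 0.02 between R5 and R5/6, and at 0.18, 0.02 and 0.14 between R5/6 and R6. Across the other lines every pair exceeded 0.1 in WD-1 between R5 and R5/6 (0.28, 0.18 and 0.22), a comparison not made here, and none did otherwise. With the number as a replicate block within each line, R6 against R5 had 14,700 calls, R5/6 against R5 7029, R6 against R5/6 2889, the WT contrast 472 calls with 53 downward, and the WD-1 contrast 5 (2 upward, 3 downward); GLYMA_03G052200 lost its call against WT (adjusted p = 0.0897).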
